A study of Mus musculus with 2 samples.

Results

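The PGC-1 coactivators are a family of 3 mouse genes, Ppargc1a, Ppargc1b and Pprc1, taken by name, and all 3 were found among the 21938 protein-coding genes of the GENCODE M21 annotation of mm10. For each gene, every DNase-seq peak and hotspot overlapping the gene body or the 100 kb on either side was collected, and each annotated start site was examined separately. The cells were adipocytes obtained in vitro from 3T3-L1, a mouse embryonic fibroblast line that turns into fat cells under a hormone cocktail, at day 8 of differentiation. The series held 1 group of 2 libraries, replicates 1 and 2, with no treatment, genotype or time contrast, so no test was made. Both libraries carried the same donor record, each combined 2 technical replicates, and the labels did not state whether the cultures were differentiated separately. The spread between them may therefore be technical. The labels named the strain C57BL/6J, whereas 3T3-L1 is generally described as Swiss in origin, and no strain was assumed.

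PGC-1 proteins are coactivators. They do not bind DNA themselves but are recruited by nuclear receptors and other transcription factors, such as PPARγ, ERRα and NRF1, and bring histone acetyltransferases and Mediator to the genes of mitochondrial biogenesis, fatty acid oxidation and heat production. Ppargc1a encodes PGC-1α, the inducible member, whose transcription rises with cold in brown fat, exercise in muscle and fasting in liver. Ppargc1b encodes PGC-1β, which sustains mitochondrial content in differentiated tissues and rises as adipocytes mature. Pprc1 encodes PRC, a more widely expressed relative that responds to growth signals. DNase-seq marks DNA that is open to cleavage by the nuclease DNase I, mostly at promoters, enhancers and insulators, and it does not measure transcription.

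The peaks were 150 bp intervals and carried a value of at most 150, which served only to rank peaks within a library's own list. Each value is given below with its percentile in that list, where 100 is the strongest. Hotspots are enriched intervals with a median length of 276 bp in replicate 1 and 272 bp in replicate 2, and some are narrower than a peak. Each hotspot of the 3 windows overlapped a peak of its own library. Replicate 1 had 133695 peaks and replicate 2 had 216556. Across the genome, 90.3% of replicate 1 peaks but 55.5% of replicate 2 peaks overlapped a peak of the other library. Peaks of both libraries that overlapped by at least 1 bp were merged, and a region holding a peak of each library is called shared. There were 117590 shared regions in all. A start site is called accessible when a peak of each library lay within 1000 bp of it. By this measure 8 of 9 adipocyte marker genes had an accessible start site, Lep being the exception with a peak of replicate 2 alone. Among fibroblast markers Pdgfra, Col1a1 and Thy1 were accessible and Dlk1 was not. None of the brown fat markers Ucp1, Cidea and Dio2, the hepatocyte markers Alb and Ttr, the blood markers Ptprc and Cd68 or the endothelial markers Pecam1 and Cdh5 was accessible, and of 3 muscle markers only Ckm was. Like Lep, the markers Dio2, Cd68 and Pecam1 had a peak of replicate 2 alone.

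The 3 loci differed in how much accessible chromatin they held. Ppargc1b stood in the richest surroundings, with 51 shared regions, Pprc1 had 33 and Ppargc1a had 18. All 3 genes had at least 1 accessible start site, as did 57.2% of protein-coding genes. Of their distinct GENCODE start sites, 3 of 5 were accessible at Ppargc1a, 2 of 2 at Ppargc1b and 8 of 10 at Pprc1, against 48.6% of the 93513 start sites of all protein-coding genes. Ppargc1a and Pprc1 each combined accessible and inaccessible start sites, as did 70.8% of the 11238 genes that have more than 1 start site and at least 1 accessible. With 3 genes these counts are descriptive, and an accessible start site was the usual state of a protein-coding gene in these cells.

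Ppargc1a lies on the minus strand at chr5:51454250-51567726 and has 2 clusters of start sites, 13.8 kb apart. The proximal cluster holds the starts of the protein-coding transcripts Ppargc1a-203 (51553922) and Ppargc1a-205 (51553891) and of Ppargc1a-201 (51553871), annotated as subject to nonsense-mediated decay. This is the promoter of the canonical PGC-1α messenger. The upstream cluster holds the protein-coding Ppargc1a-202 (51567726) and Ppargc1a-204 (51567704), also annotated as subject to nonsense-mediated decay. An upstream first exon of this gene is known from muscle and brown fat, where exercise and adrenergic signals induce it.

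The proximal cluster was open in both libraries. Replicate 1 had a peak at chr5:51553896-51554045 with a value of 77 (percentile 81.4), and replicate 2 had one at chr5:51553856-51554005 with a value of 124 (percentile 90.4). Their merged region is centred 28.5 bp upstream of the Ppargc1a-203 start. The hotspots over the cluster were the widest of the locus in both libraries, at 2394 bp in replicate 1 and 2607 bp in replicate 2. Both reached the upper limit of the deposited −log10 q value, 100, and each held 3 peaks.

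The sequence from the base before the Ppargc1a-203 start to the upstream edge of the proximal peak, chr5:51553923-51554045, is shown because it holds a cAMP response element, the word through which CREB and ATF2 act. It is printed on the minus strand of GRCm38 (mm10), with TGACGTCA in capitals:
Ppargc1a proximal promoter: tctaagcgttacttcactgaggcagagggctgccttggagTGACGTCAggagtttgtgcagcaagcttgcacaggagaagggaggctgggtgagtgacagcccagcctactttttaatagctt
The word spans chr5:51553998-51554005, from 83 to 76 bp upstream of the Ppargc1a-203 start, and lies inside the peak of each library. It was the only match to this word in the shared regions of the 3 loci. Across the genome the central 150 bp of 0.469% of shared regions held it, and 1.52% of those at promoters did.

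The upstream cluster was open in replicate 2 only. Replicate 2 had a peak at chr5:51567816-51567965, centred 164 bp upstream of the Ppargc1a-202 start, with a value of 68 (percentile 49.0), in a hotspot of 197 bp with a −log10 q of 3.111. Replicate 1 had no peak within 1000 bp, and its nearest peak was the one at the proximal promoter, 13.7 kb away. The call at this promoter thus rests on the library with the longer list, in which 55.5% of peaks had a partner. The replicate 2 peak is printed on the minus strand to set this promoter beside the proximal one, and none of the 17 words searched (given with the motif counts) was found in it:
Ppargc1a upstream start, replicate 2 peak: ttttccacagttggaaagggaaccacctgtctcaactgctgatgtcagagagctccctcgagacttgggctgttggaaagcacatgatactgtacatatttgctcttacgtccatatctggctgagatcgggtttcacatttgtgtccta

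Behind the proximal promoter, the first intron held strong peaks that lay side by side in the 2 libraries without overlapping. Replicate 1 had a peak at chr5:51552576-51552725 with a value of 107 (percentile 95). Replicate 2 had one at chr5:51552736-51552885 with a value of 136 (percentile 95.5), 10 bp further on. A second pair lay 110 bp apart, with a value of 58 (percentile 65.9) at chr5:51551996-51552145 in replicate 1 and 126 (percentile 91.3) at chr5:51552256-51552405 in replicate 2. None of these 4 peaks counts as shared, although all lie inside the hotspot that both libraries called over the proximal promoter. When peaks less than 150 bp apart were joined, a setting chosen after the data were seen, the locus had 20 shared regions in place of 18.

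**Figure D1:**
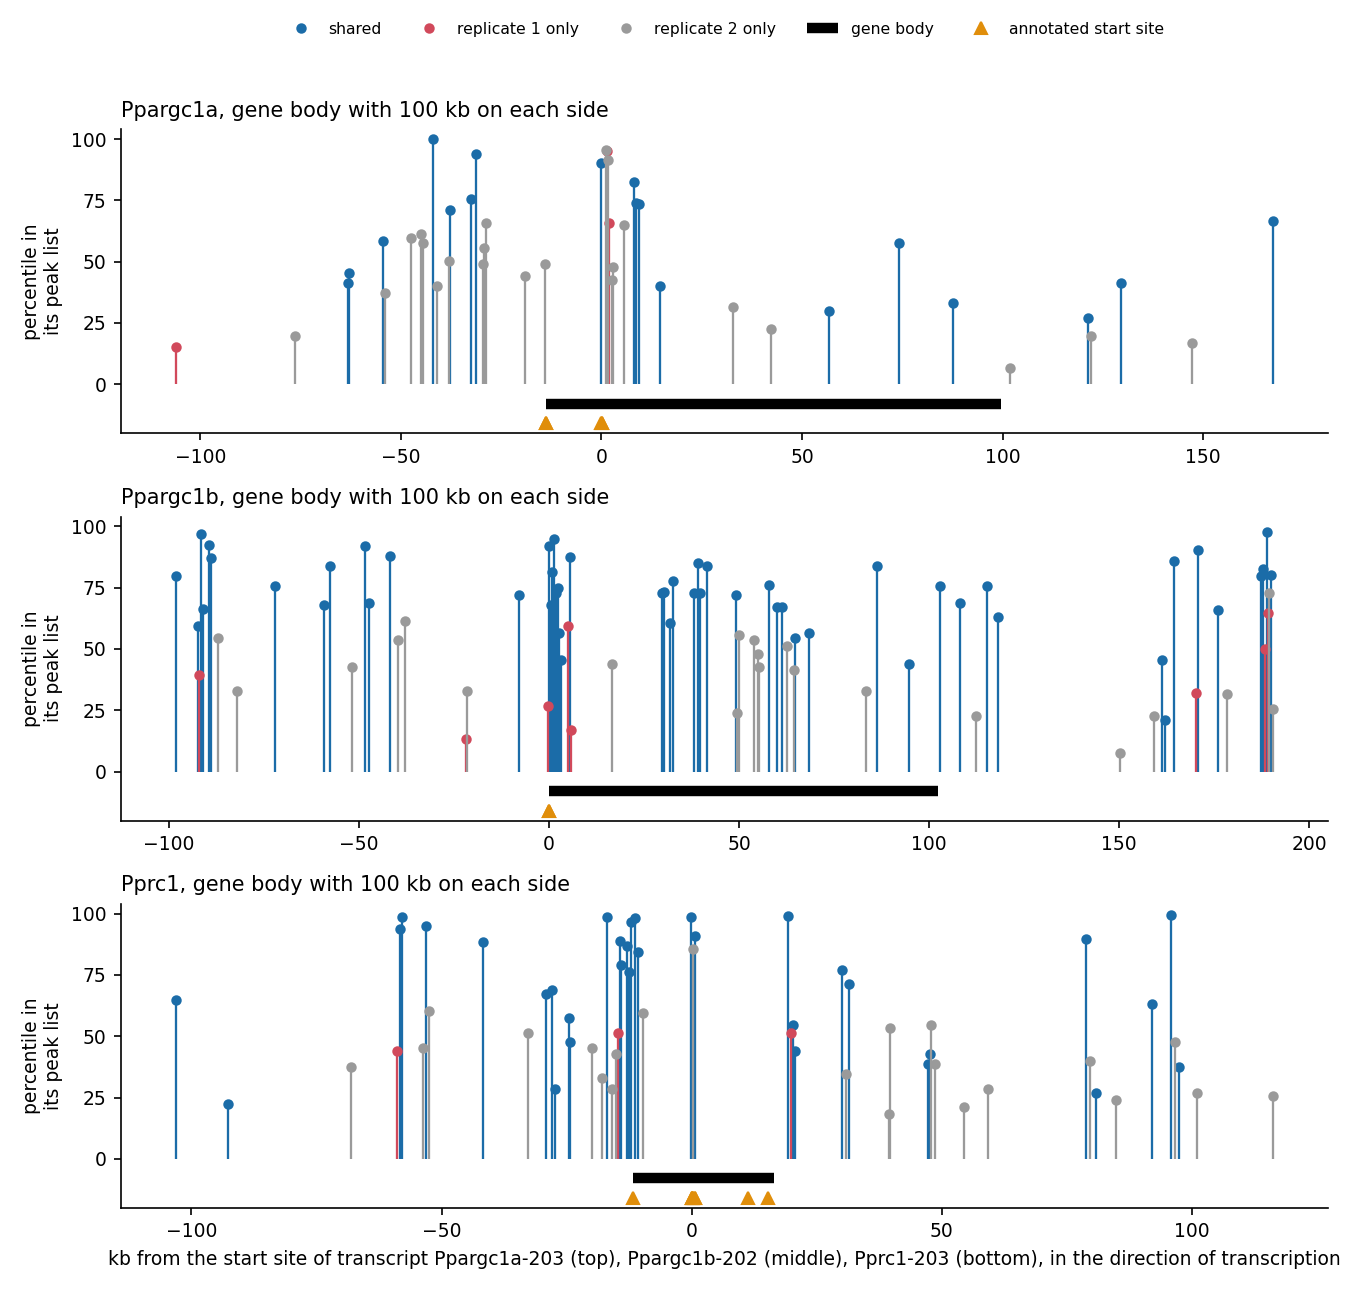
Each stem is a merged region in the gene body or the 100 kb on either side of Ppargc1a (top), Ppargc1b (middle) and Pprc1 (bottom), placed by its distance in kb from a start site in the direction of transcription. The height is the percentile of its peak within the replicate 2 list, or within the replicate 1 list for regions found in replicate 1 only; colours give the libraries, the black bar the gene body and triangles the annotated start sites. Ppargc1a has 18 shared regions, Ppargc1b 51 and Pprc1 33, and around Ppargc1a the tallest shared stem stands upstream of the gene and not at a start site.

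Away from its promoters, Ppargc1a had 17 shared regions, called distal here because their centres lay over 1000 bp from any start site of a protein-coding gene, of which 10 were intergenic and 7 intronic. By side, 7 shared regions lay upstream of the gene body, 8 inside it and 3 past its 3′ end. The 2 strongest were upstream. The first, chr5:51595736-51595885, lay 28.1 kb upstream of the Ppargc1a-202 start and had values of 123 in replicate 1 (percentile 98.7) and 150 in replicate 2 (percentile 99.9). It thus ranked above the proximal promoter in both libraries. The second, chr5:51585136-51585305, lay 17.5 kb upstream and had values of 101 (percentile 93.0) and 132 (percentile 93.9). These were the only shared regions of the locus in the top 10% of both lists, 2 of 18, or 11.1% against 10.8% of all shared regions. Both are printed on the minus strand as the strongest accessible sequence near the gene, with a match to the C/EBP word TTGCNNAA, read here on the opposite strand, in capitals:
Ppargc1a upstream region, strongest: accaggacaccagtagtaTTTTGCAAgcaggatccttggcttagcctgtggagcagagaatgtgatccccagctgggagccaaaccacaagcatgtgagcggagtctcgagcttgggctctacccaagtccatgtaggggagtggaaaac
Ppargc1a upstream region, next: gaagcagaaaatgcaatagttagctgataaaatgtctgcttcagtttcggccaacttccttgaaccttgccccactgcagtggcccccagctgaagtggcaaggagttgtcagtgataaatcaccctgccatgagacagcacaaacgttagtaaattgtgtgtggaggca
C/EBP factors, among them C/EBPα and C/EBPβ, drive adipocyte differentiation together with PPARγ. The strongest region held 1 match to their word and the next region held a match to none of the words.

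The upstream flank of Ppargc1a also held the most unshared regions of the locus. Besides its 7 shared regions it held 12 regions of replicate 2 alone and 1 of replicate 1 alone. Such regions were common, as only 55.5% of all replicate 2 peaks had a partner. In the whole Ppargc1a window the share was 43.9%, with an exact binomial interval of 28.5 to 60.3 that included it. The flank was not tested separately. Of the 12 replicate 2 regions of the flank, 3 had values of 85, 74 and 68. They stood between 15.1 and 15.8 kb upstream of the Ppargc1a-202 start, nearer to the gene than any of the 7 shared ones. A further shared region at chr5:51586276-51586465 had values of 55 (percentile 62.7) and 98 (percentile 75.5), and one at chr5:51591616-51591785 had values of 42 and 92. From 40.5 to 49.5 kb upstream, 3 more shared regions were weak in replicate 1, with values of 21 to 27, and stood at 62 to 77 in replicate 2.

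Inside the Ppargc1a gene body, apart from the proximal promoter, the strongest shared regions formed a group of 3 in an intron, 8.00 to 9.29 kb downstream of the proximal start sites. The region at chr5:51545276-51545485 had values of 77 (percentile 81.4) and 96 (percentile 74.1), that at chr5:51544496-51544665 values of 54 and 95, and that at chr5:51545796-51545945 values of 50 and 109. The first of them held 2 matches to the AP-1 word. Further into the gene the shared regions were few and low. The widest distance between neighbouring shared regions, 42.0 kb from centre to centre, lay within the gene body. Past the 3′ end, a region at chr5:51386496-51386685 had values of 53 (percentile 60.4) and 86 (percentile 66.5), and the other 2 stood below percentile 45 in both libraries.

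RefSeq places further Ppargc1a start sites, most of them computer predictions, and 6 of 10 RefSeq start sites were accessible, beside 3 of 5 from GENCODE. With 500 bp in place of 1000 bp these were 5 of 10 and 3 of 5. The 2 sets hold different start sites, so their shares are not a check on each other. A predicted pair at 51553084 and 51553095 lies in the intron next to the side-by-side peaks described above. Another predicted pair, 52115456 and 52115853, is counted among the 6 but lies outside the collected window, the second of them 562 kb upstream of the proximal promoter. A shared region at chr5:52116136-52116325 is centred 377 bp upstream of the second, with a value of 24 in replicate 1 (percentile 13.3) and 64 in replicate 2 (percentile 44.0). A predicted start at 51704392 had no peak in either library within 1000 bp.

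Ppargc1b lies on the minus strand at chr18:61298136-61400431 and has a single promoter with 2 annotated start sites 31 bp apart, 61400400 (Ppargc1b-201 and Ppargc1b-203) and 61400431 (Ppargc1b-202). Both were accessible. Replicate 1 had a peak at chr18:61400336-61400485 with a value of 65 (percentile 72.4), and replicate 2 had one at chr18:61400356-61400505 with a value of 128 (percentile 92.2). Within 1000 bp downstream, shared regions at chr18:61399796-61400005, with values of 33 (percentile 30.4) and 88 (percentile 68.1), and chr18:61399356-61399605, with values of 52 (percentile 59.2) and 107 (percentile 81.4), were centred inside the gene. Replicate 1 had another peak, absent from replicate 2, at chr18:61400636-61400785, with a value of 31 (percentile 26.6). The libraries differed in the extent of the hotspot over this promoter, which was 405 bp with 1 peak in replicate 1 and 3945 bp with 9 peaks in replicate 2. The latter was the widest hotspot of the locus in replicate 2.

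The open chromatin of Ppargc1b continued into its first intron. Of its shared regions, 9 lay within 5.61 kb, from chr18:61394896 to 61400505, the densest 10 kb of the 3 loci. The region over the start sites was not the strongest of them in either library. A region at chr18:61398976-61399145, 1.34 kb into the gene, had values of 86 (percentile 86.6) and 134 (percentile 94.7), and one at chr18:61394896-61395065, 5.42 kb into the gene, had values of 70 (percentile 76.5) and 118 (percentile 87.5). The same intron carries Mir378a, the gene of miR-378, a microRNA made together with PGC-1β, at chr18:61397835-61397900. A shared region at chr18:61397676-61397825, with values of 30 (percentile 24.7) and 75 (percentile 56.6), ended 10 bp from it, and 2 stronger shared regions, with values of 46 and 97 and of 51 and 94, lay between it and the region at chr18:61398976-61399145. Another annotated small RNA gene, Gm25301, overlaps both Mir378a and that region.

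Further into the gene, Ppargc1b kept a run of shared regions that Ppargc1a did not have. The gene body held 25 shared regions in 102.3 kb, against 8 in the 113.5 kb of Ppargc1a. Between 29.9 and 41.7 kb from the start site, 8 shared regions had values of 39 to 64 in replicate 1 and 79 to 113 in replicate 2. Beyond them 4 lay between 49.1 and 61.3 kb, with values of 33 to 68 and 87 to 99. One at chr18:61314076-61314245, 86.2 kb into the gene, had values of 68 (percentile 74.9) and 111 (percentile 83.8).

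In the flanks of Ppargc1b, 13 shared regions lay upstream and 13 past the 3′ end. Outside promoters, the strongest of these by replicate 1 percentile were nearer to other genes. A region in an exon of Arhgef37, chr18:61491836-61492025, 91.5 kb upstream of the Ppargc1b start, had values of 107 (percentile 95) and 139 (percentile 96.7). Its neighbour at chr18:61489636-61489805, in intergenic DNA, had values of 99 (percentile 92.3) and 129 (percentile 92.6). A region in an intron of Pde6a, chr18:61229756-61229905, had values of 87 (percentile 87.1) and 124 (percentile 90.4). The strongest upstream region that had Ppargc1b as its nearest gene, chr18:61448616-61448765, lay 48.3 kb upstream and had values of 82 (percentile 84.4) and 128 (percentile 92.2). In replicate 2 this region ranked above the one in the Pde6a intron. In all, 25 of the 51 shared regions were nearest to a Ppargc1b start site and 26 to that of another protein-coding gene. Of the genes with a start site in the window, the sulfate transporter gene Slc26a2 was accessible and Pde6a, a photoreceptor phosphodiesterase gene, was not.

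**Figure D2:**
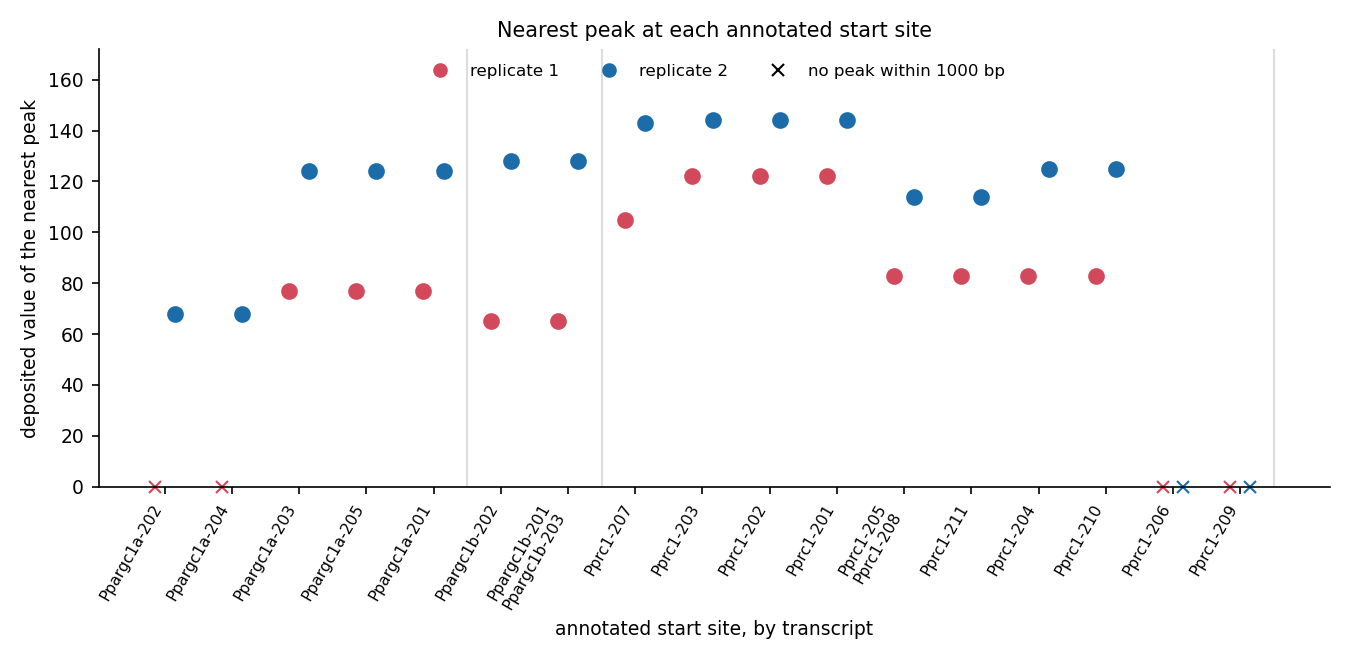
The deposited value of the nearest peak is plotted for replicate 1 (red) and replicate 2 (blue) at each distinct annotated start site of Ppargc1a, Ppargc1b and Pprc1, named by transcript on the horizontal axis; a cross on the base line means that the library had no peak within 1000 bp. Start sites that share a peak show the same value, the upstream start sites of Ppargc1a have a replicate 2 point only, at 68, and Pprc1-206 and Pprc1-209 have no point in either library. The scales of the 2 libraries differ, so heights compare start sites within a library.

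Pprc1 lies on the plus strand at chr19:46044886-46072915 and has 10 distinct start sites. The main group, 46056539 (Pprc1-203), 46056581 (Pprc1-202) and 46056584 (Pprc1-201), all protein-coding, lay beside the strongest promoter peak of the family. Both libraries placed it at chr19:46056376-46056525, with values of 122 in replicate 1 (percentile 98.6) and 144 in replicate 2 (percentile 98.5), centred 88 bp upstream of the Pprc1-203 start. It is printed on the plus strand to show 3 copies of a 12-base word that was looked for only after the sequence had been seen, the core of the site of ZNF143, a zinc finger factor of housekeeping promoters. The copies are in capitals, the first as ACTAC, any 3 bases and TCCC and the other 2 as the reverse complement:
Pprc1 promoter: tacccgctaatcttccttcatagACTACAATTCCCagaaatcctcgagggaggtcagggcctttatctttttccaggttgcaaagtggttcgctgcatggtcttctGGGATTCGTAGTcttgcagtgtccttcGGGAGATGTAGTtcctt
In the central 150 bp of all shared regions, 0.577% held this word at least once (2.22% of those at promoters), and 4 of the 117590 held it 3 or more times. Since the word was chosen from this sequence, these counts describe it and support nothing further.

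Downstream of the main Pprc1 start sites is a second group. For 46056832 (Pprc1-205 and Pprc1-208) and 46056864 (Pprc1-211), replicate 2 had a peak directly over the start, chr19:46056776-46056925, with a value of 114 (percentile 85.4), and replicate 1 had its nearest peak at chr19:46057056-46057205, with a value of 83 (percentile 85.0). These starts count as accessible although their nearest peaks in the 2 libraries did not overlap. For 46057236 (Pprc1-204) and 46057259 (Pprc1-210) the nearest peaks did overlap, in a shared region at chr19:46057056-46057225 with values of 83 and 125 (percentile 90.9). A single hotspot spanned all 7 of these start sites, 1706 bp wide in replicate 1 and 1919 bp in replicate 2, at the upper limit in both. The shared region is printed on the plus strand because it repeats a pair of words. CACGTG, the E-box read by MYC and USF factors, and GGGCGGGG, read by SP and KLF factors, are in capitals:
Pprc1 internal starts: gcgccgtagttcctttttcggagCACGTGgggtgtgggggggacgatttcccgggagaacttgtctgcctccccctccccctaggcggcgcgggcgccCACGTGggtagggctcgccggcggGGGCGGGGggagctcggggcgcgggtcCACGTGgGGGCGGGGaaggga
It holds 3 matches to the E-box word and 2 to the SP/KLF word over its full length. Of all 117590 shared regions, 16 held the E-box word 3 or more times over their full length, and 2.83% held it at least once in their central 150 bp.

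The other Pprc1 start sites fall outside that promoter. The most upstream, 46044886 (Pprc1-207, a processed transcript without an annotated protein), lies at the promoter of Ldb1, a cofactor of LIM-domain transcription factors that is transcribed from the opposite strand. The nearest peaks merged into chr19:46045156-46045325, with values of 105 (percentile 94.4) and 143 (percentile 98.1), a region nearer to Ldb1 than to Pprc1. On the other side of the start, chr19:46044416-46044585 had values of 103 (percentile 93.7) and 139 (percentile 96.7), and chr19:46043876-46044105 had values of 39 (percentile 40.8) and 99 (percentile 76.2). A further shared region, chr19:46045816-46045985, reached within 1000 bp of the start and was also nearer to Ldb1. It had values of 63 (percentile 70.6) and 112 (percentile 84.4). The accessibility of Pprc1-207 and of Ldb1 cannot be told apart. The region at chr19:46044416-46044585 is printed on the plus strand because it holds 2 copies, on opposite strands, of the NF-Y word CCAATCA, which was also added after the sequence had been seen and is in capitals:
Ldb1-Pprc1 region: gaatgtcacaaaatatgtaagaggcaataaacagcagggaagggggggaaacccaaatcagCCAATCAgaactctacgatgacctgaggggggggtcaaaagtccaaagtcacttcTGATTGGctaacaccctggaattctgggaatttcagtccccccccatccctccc
NF-Y, a CCAAT-box factor of many promoters, had its word in 2.50% of all shared regions and 5.04% of those at promoters. The remaining start sites, 46067834 (Pprc1-206, a processed transcript) and 46071754 (Pprc1-209, a retained intron), had no peak of either library within 1000 bp. The nearest peak to both was that of the next gene, Nolc1.

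Around Pprc1 the accessible chromatin belonged mostly to its neighbours. Of the 33 shared regions, 15 were at promoters, 6 were intronic, 4 exonic and 8 intergenic, and 27 were nearest to the start site of another gene. There were 7 other protein-coding genes with a start site in the window, of which Armh3, Gbf1, Hps6, Ldb1, Nolc1 and Pitx3 were accessible and Elovl3, a fatty acid elongase gene induced in brown fat by cold, was not. The strongest region of the locus, chr19:46152316-46152485, was at the promoter of Gbf1, with values of 139 (percentile 99.9) and 147 (percentile 99.4). Outside promoters, the strongest shared region in replicate 1 was chr19:46042056-46042225 in an intron of Ldb1, with values of 89 (percentile 88.0) and 121 (percentile 89.0). In replicate 2 it was chr19:46135396-46135565 in an exon of Elovl3, with values of 75 (percentile 80.1) and 122 (percentile 89.5). An intergenic region at chr19:46014656-46014825 had values of 85 (percentile 86.1) and 120 (percentile 88.5). Introns of Ldb1 held others at chr19:46043456-46043625, with values of 79 (percentile 82.6) and 117 (percentile 87.0), and chr19:46042396-46042565, with values of 70 (percentile 76.5) and 103 (percentile 78.9). The gene body of Pprc1 itself held 4 shared regions, and 2 distal regions of the window were nearest to one of its start sites.

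The 3 loci were next set against all protein-coding genes by the number of shared regions per 100 kb of gene body and flanks. The value was 5.74 for Ppargc1a, 14.5 for Pprc1 and 16.9 for Ppargc1b, and the median of all genes was 7.70. Ppargc1a stood at percentile 36.1, Pprc1 at 87.4 and Ppargc1b at 93.4. Peaks of replicate 1 alone put the percentiles at 37.0, 88.2 and 94.5, and those of replicate 2 alone at 47.6, 85.6 and 83.9, so Ppargc1a was lowest in each library while the order of the other 2 reversed between them. Without the regions at promoters the values were 5.42 for Ppargc1a (percentile 53.8), 7.89 for Pprc1 (77.9) and 14.9 for Ppargc1b (98.8), with a median of 5.07 over all genes. These densities depend on the genes nearby. The Ppargc1a window holds no start site of another protein-coding gene, and all 18 of its shared regions had Ppargc1a as nearest gene. Counting only distal regions nearest to a start site of the gene gave 22 for Ppargc1b, 14 for Ppargc1a and 2 for Pprc1.

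**Figure D3:**
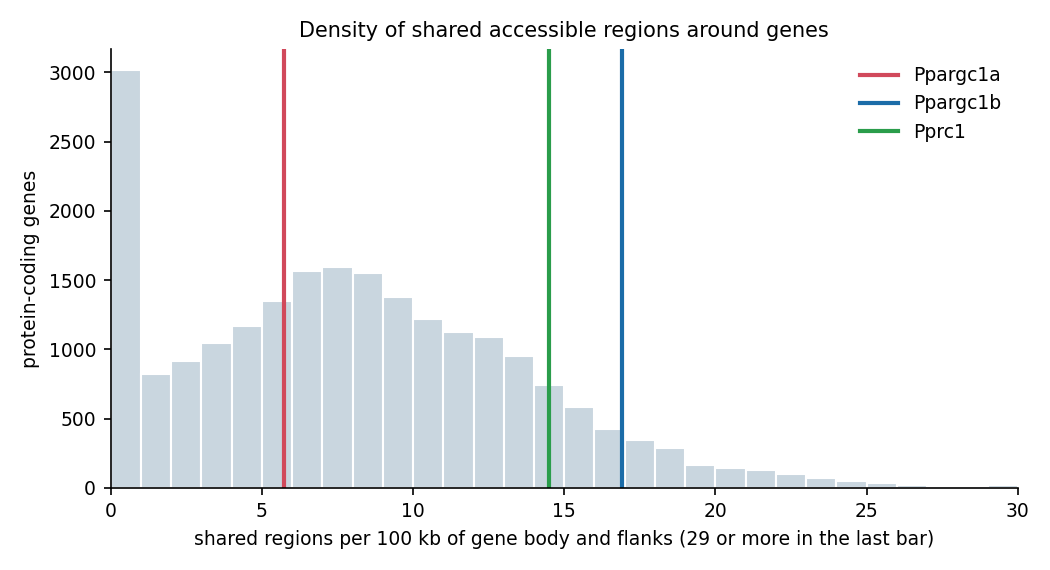
The histogram gives the number of protein-coding genes (vertical axis) by shared regions per 100 kb of gene body and 100 kb flanks (horizontal axis), with the 3 coactivator genes as vertical lines. Ppargc1a, at 5.74, lies below the median of 7.70, and Pprc1, at 14.5, and Ppargc1b, at 16.9, lie in the upper tail.

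Peak numbers per library followed the same order. Ppargc1a had 21 peaks in replicate 1 and 41 in replicate 2 (mean 31 ± 14.1, SD, n = 2), Pprc1 had 38 and 57 (47.5 ± 13.4) and Ppargc1b had 60 and 73 (66.5 ± 9.19). Within each library Ppargc1a had the fewest peaks and Ppargc1b the most. Across the 2 libraries, the ranges of the counts overlapped for Ppargc1a and Pprc1, and that of Ppargc1b lay above both. The windows were unequal, at 313.5 kb for Ppargc1a, 302.3 kb for Ppargc1b and 228 kb for Pprc1. Per 100 kb, Ppargc1a had 6.7 peaks in replicate 1 and 13.1 in replicate 2, both below the lower Pprc1 value of 16.7, in replicate 1. The Ppargc1b values, 19.8 and 24.1, lay inside the Pprc1 range. The libraries also differed in list length, and whether any of the spread is biological cannot be told from these data. Of the replicate 1 peaks, 85.7% at Ppargc1a (95% exact binomial interval 63.7 to 97.0), 85.0% at Ppargc1b (73.4 to 92.9) and 92.1% at Pprc1 (78.6 to 98.3) had a partner in replicate 2, and each interval included the 90.3% of the whole list. Of the replicate 2 peaks, 43.9% at Ppargc1a (28.5 to 60.3) and 59.6% at Pprc1 (45.8 to 72.4) had a partner in replicate 1, intervals that included the 55.5% of the whole list. At Ppargc1b the share was 71.2% (59.4 to 81.2), an interval that lay above it. With the stronger 50% of each list this was no longer so, as the share there was 59.3% (45.0 to 72.4) beside 59.5% of the whole list. The intervals cover counting error only, and neighbouring peaks are not independent.

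The shared regions of Ppargc1a were also weaker. Their median percentile was 36.1 in replicate 1 and 62.5 in replicate 2, against 59.2 and 74.8 at Ppargc1b, 70.6 and 76.9 at Pprc1, and 54.1 and 71.2 over all shared regions. Promoter regions rank high across the genome, with medians of 75.7 and 86.0, and they made up 15 of 33 shared regions at Pprc1 but 1 of 18 at Ppargc1a. Among distal regions alone the medians were 26.6 and 58.6 at Ppargc1a, 35.6 and 66.0 at Pprc1 and 57.9 and 72.7 at Ppargc1b, beside 48.5 and 67.3 for all distal shared regions. On this measure the distal regions of Ppargc1b ranked highest of the 3 in both libraries.

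Hotspots showed the same contrast in covered length. They numbered 18 and 37 at Ppargc1a in replicates 1 and 2, covering 7.2 and 14.4 kb or 2.30% and 4.60% of the window. At Ppargc1b there were 46 and 57, covering 20.2 and 28.5 kb (6.67% and 9.44%), and at Pprc1 31 and 43, covering 14.6 and 22.8 kb (6.42% and 10%). Hotspots covered 1.66% and 2.80% of the genome in replicates 1 and 2, less than their share of each window. That figure takes in DNA far from genes, so it is not a background for windows around genes. Hotspots merged over both libraries were therefore counted per 100 kb beside all protein-coding genes. By that count Ppargc1a stood at percentile 39.8, Pprc1 at 81.9 and Ppargc1b at 90.9. The share of hotspots at the upper limit of the −log10 q value was 33.3% and 29.7% at Ppargc1a, 52.2% and 57.9% at Ppargc1b and 48.4% and 34.9% at Pprc1. Over all hotspots of each library, 46.7% and 48.5% were at that limit. The median distance between neighbouring shared regions was 8.35 kb at Ppargc1a, 2.15 kb at Ppargc1b and 1.71 kb at Pprc1.

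**Figure D4:**
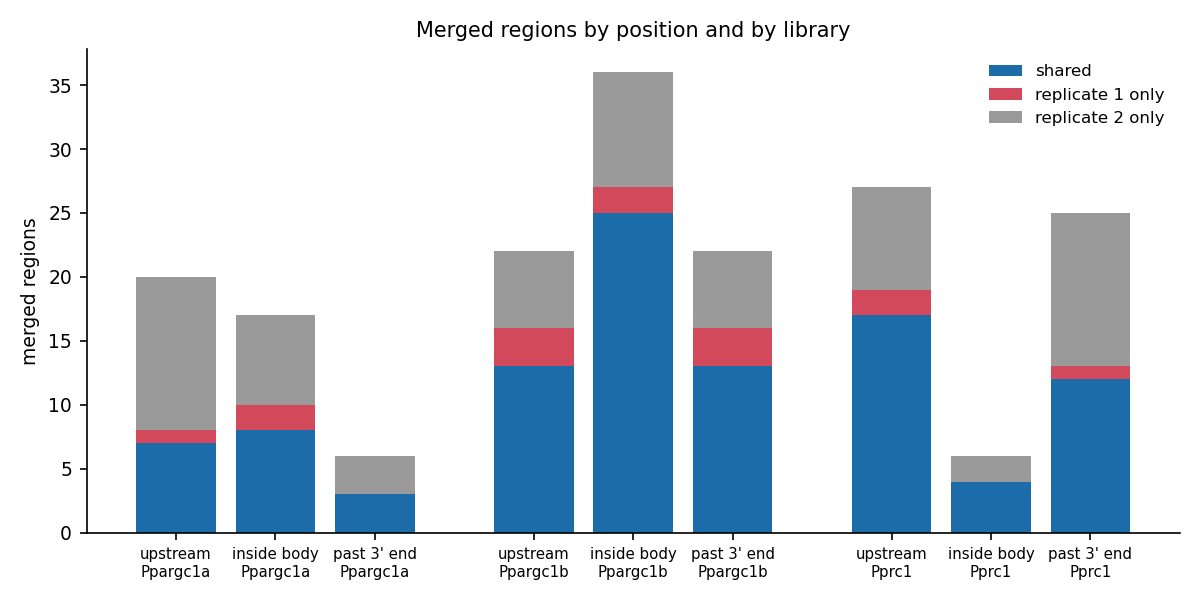
Bars give the number of merged regions upstream of the gene body, inside it and past its 3′ end for each gene, stacked by whether both libraries (blue), replicate 1 alone (red) or replicate 2 alone (grey) had a peak. Inside the gene body, Ppargc1b has 25 shared regions, Ppargc1a 8 and Pprc1 4, and upstream of Ppargc1a the 12 regions of replicate 2 alone outnumber the 7 shared ones.

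The promoters themselves differ in base composition. In the 1000 bp centred on each start site, the observed to expected CpG ratio was 0.175 to 0.176 at the proximal start sites of Ppargc1a and 0.228 to 0.229 at the upstream ones, with a GC content of 46.5% to 46.6% and 41.9% to 42.0%. At Ppargc1b the ratio was 0.720 to 0.733. At the 8 accessible start sites of Pprc1 it was 0.716 to 0.864, and at the 2 inaccessible ones 0.182 and 0.325. The median over all start sites of protein-coding genes was 0.425. Thus the Ppargc1a promoters have CpG-poor sequence, and the accessible start sites of the other members have CpG-rich sequence.

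Short consensus words were searched on both strands in the central 150 bp of each shared region. A match describes the letters and does not show that a factor was bound. The words were CRE, C/EBP, E-box and SP/KLF as given above, AP-1 (TGANTCA), the glucocorticoid receptor (ACANNNTGT), ERR (TNAAGGTCA), DR1 (AGGNCA repeated after 1 base, the site of PPAR-RXR dimers), FOXO (TGTTTAC), TEAD (GGAATGT), GABP (CCGGAAG), YY1 (AAGATGGC), and NFI, EBF, NRF1, MEF2 and CTCF by their names. At least 1 of the 17 words was found in 11 of 18 shared regions at Ppargc1a (61.1%), 25 of 51 at Ppargc1b (49.0%) and 13 of 33 at Pprc1 (39.4%), against 42.0% of all shared regions.

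The C/EBP word was in 5 of the 18 shared regions of Ppargc1a, all distal, and in 3 of 51 at Ppargc1b and 3 of 33 at Pprc1. Across the genome 11.9% of all shared regions held it, 13.3% of distal ones and 6.49% of those at promoters. The AP-1 word was in 2, 6 and 0 shared regions of Ppargc1a, Ppargc1b and Pprc1, against 8.94% of all. CTCF, the insulator factor, had its word in 5 shared regions at Ppargc1b, 1 at Pprc1 and 0 at Ppargc1a, against 4.88%. The E-box word was in 5 regions at Ppargc1b, 2 of them in the dense run behind its promoter, against 2.83% of all. SP/KLF was in 4 at Pprc1, all at promoters, against 3.76% of all shared regions and 14.2% of those at promoters. Of the words of receptors that PGC-1 proteins coactivate, that of the glucocorticoid receptor was in 2, 1 and 2 shared regions of Ppargc1a, Ppargc1b and Pprc1, against 5.06% of all. DR1 and ERR each had 1 match, both in the Ppargc1b window. The ERR match lay in an intron of Ppargc1b, in a region nearest to the start site of Pde6a. The DR1 match lay in an intergenic region 91.0 kb upstream of Ppargc1b, nearest to the start site of Arhgef37. Genome-wide DR1 and ERR were in 0.543% and 0.825% of shared regions.

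The partners and targets of the coactivators were read in the same way from a list of 59 genes. A start site was accessible in both libraries at 50 of them, against 57.2% of all protein-coding genes. Among nuclear receptors 8 of 12 were accessible, including Pparg, Rxra, Esrra and Thra, and the exceptions were Esrrb, Esrrg, Hnf4a and Ppara, the last with a peak of replicate 2 alone. Of other partner transcription factors, such as Nrf1, Gabpa, Yy1 and Creb1, 13 of 14 were accessible, the exception being Mef2c. Among coregulators and modifying enzymes 17 of 18 were, among them the deacetylase Sirt1 and the acetyltransferases Ep300 and Kat2a, and the exception, the AMPK subunit gene Prkaa2, had a peak of replicate 2 alone. Of the mitochondrial targets 13 of 16 were accessible, including Tfam, Cycs and Cox5b, and Ucp1, Cpt1b and Fndc5 were not. Esrra stands in both the receptor and the target lists. The median density of shared regions over the 59 genes was 9.44 per 100 kb, and the highest values were those of Esrra (22.3), Thra (21.9) and Atp5b (20.8).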

How the data were processed

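DNase-seq of 2 libraries was used as deposited, on mm10 per the labels. The authors deposited separate region lists for each library, with no pooled list used here. The sources used here name no caller or aligner and give no read depth, so no depth-based precision can be stated. The deposited peak lists give a signal value per peak, and the deposited hotspot lists give a −log10 q value. Duplicate lines (20 and 33) and peaks on unplaced contigs (337 in replicate 1, 603 in replicate 2) were left out.

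Python 3.11.15, numpy 2.4.6 and pandas 2.3.3 were used. Start sites were the 5′ ends of all transcripts of a protein-coding gene in GENCODE M21. A region was called promoter when its centre lay within 1000 bp of one, and otherwise exonic, intronic or intergenic. Sequences came from GRCm38. The merging of peaks, the window counts and the word search were tested on simulated data. Alternatives were the stronger 50% of peaks, 50% overlap, equal list lengths, hotspots, other flanks and windows, each library alone, RefSeq start sites and joined peaks; the last pair was added after seeing the data.

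The members, gene lists and words were chosen with earlier results of these data known. For each gene the text names the regions within 1000 bp of its start sites and, outside promoters, the 5 shared regions with the highest replicate 1 percentile. Other regions were named after their values were seen. From the partner list it names each gene without an accessible start site and the 3 of highest density. Others are examples.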

Additional observations from a re-analysis of the deposited data

How the results depend on the processing

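Under the settings chosen at the outset, 93 values were classed as close to those reported and 29 as moved. The class of close was wide. For shared regions at Ppargc1b, 51 in the main setting, it took in 37 with hotspots in place of peaks and 73 with replicate 2 alone. At Pprc1 it took in 24 with hotspots, against 33. The 93 are thus not a measure of stability. With the stronger 50% of each list, shared regions numbered 8 at Ppargc1a, 32 at Ppargc1b and 18 at Pprc1, those outside promoters 7, 27 and 7, the density percentile of Pprc1 was 77, and 59.3% (45.0 to 72.4) of replicate 2 peaks at Ppargc1b had a partner, an interval that included the 59.5% of the whole list. With the longer list shortened the percentile of Pprc1 was 83.2, and with hotspots in place of peaks 81.9. With 50 kb flanks the percentiles of Ppargc1a and Pprc1 were 50.8 and 95.8, and Ppargc1b had 33 shared regions. In the gene body alone there were 8, 25 and 4 shared regions at Ppargc1a, Ppargc1b and Pprc1, and the percentiles of Ppargc1a and Pprc1 were 52.7 and 74.8. Distal regions nearest to the gene numbered 22 at Ppargc1b and 2 at Pprc1. The cause of these shifts was not tested, beyond the smaller windows and shorter lists that the settings themselves impose.

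Without 1 library, using peaks of the other alone, the number of regions was 21 to 41 at Ppargc1a, 60 to 73 at Ppargc1b and 38 to 57 at Pprc1, and outside promoters 20 to 39, 51 to 66 and 21 to 33. The percentiles were 37 to 47.6 for Ppargc1a, 83.9 to 94.5 for Ppargc1b and 85.6 to 88.2 for Pprc1. Accessible start sites of Ppargc1a numbered 3 without replicate 2 and 5 without replicate 1. Those of Ppargc1b stayed at 2 and those of Pprc1 at 8. Regions with at least 1 word numbered 10 to 19, 25 to 29 and 14 to 21 at Ppargc1a, Ppargc1b and Pprc1, and accessible partner genes 50 to 52. RefSeq start sites, added after seeing the data, gave 6 of 10 accessible for Ppargc1a, among them a predicted pair outside the collected window. No paired analysis was possible because the series holds 1 group. The depth of the libraries is unknown, and the absence of a peak may be a matter of depth.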
